A study of Arabidopsis thaliana with 4 samples.

Results

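Leaves of Arabidopsis thaliana carrying the myc2 mutation were compared by RNA sequencing in a single pair of libraries, myc2 R3 set against myc2 air, which are 2 of the 4 libraries of the study. Both were made from 4-week-old plants of the Col-0 accession, with leaves of 6 plants in each library. The mutant allele is named myc2-2 in the protocol, and both groups carry it. R3 is labelled as 3 h after submergence and air as the state before submergence. The protocol gives 24 h under water in darkness, with harvests 0 and 24 h into reoxygenation, so for the 3 h of R3 the sample labels are the only source. The other 2 libraries, WT R3 and WT air, are wild-type leaves of the same design, and the values of WT R3 are headed FPKM, counted per fragment, in the deposited table. R3 and air differ, as labelled, in the preceding dark period and the hour of harvest as well, and because no library was kept dark in air, submergence, darkness, reoxygenation and time of day cannot be told apart. With 1 library in each group there was no test, no standard error and no replicate check, and every difference below describes these libraries.

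MYC2 is a basic helix-loop-helix factor that, once jasmonate has led to the removal of JAZ repressor proteins, activates many jasmonate-responsive genes, in wound and defence responses and in leaf growth. Submerged leaves are short of oxygen and light, and on return to air they meet a burst of reactive oxygen together with water loss. Chaperones, glutathione-dependent enzymes, abscisic acid signalling and the dismantling of chloroplast functions are among the responses known from such transitions.

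The comparison covered all 31319 loci of the tables, of which 17737 had a mean of at least 1 RPKM (reads per kilobase of gene and per 1000000 mapped reads) over the pair. For each of these the log2 ratio of R3 to air was taken after 1 RPKM had been added to each value, and "2-fold" below means a difference of at least 1 on this scale. Estimated depth was 22.2 × 1000000 fragments in myc2 R3 and 30.5 × 1000000 in myc2 air, with 17482 and 16930 loci at 1 RPKM or more in the same order. Counting error alone, for a gene of median length at 1 RPKM, was 16.8% and 14.3% of the value in that order. The 50 highest genes took 17.3% of all RPKM in myc2 R3, against 33.0% in myc2 air, which moves every other value on a scale relative to the total. Among markers of other organs, seed genes reached 0.0400 RPKM in sum at R3, against 0.0162 in air. Of 4 root markers only PYK10 passed the filter. Floral markers summed to 23.4 RPKM at R3, against 12.1 in air, and shoot meristem markers to 22.6 at R3, against 13.02 in air. The same shoot meristem markers summed to 24.3 in WT R3, against 3.09 in WT air, so the air libraries of the genotypes lay apart in them. All 5 markers of leaf epidermis and phloem passed, with a sum of 24.0 at R3, against 34.8 in air.

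MYC2 (AT1G32640, chr1:11798119-11801407) itself was at 34.9 RPKM in myc2 R3, against 14.2 in myc2 air. The log2 ratio was 1.24 as deposited and 0.94 when both libraries were rescaled to the median of their ratios. It was at 91.7 RPKM in WT R3, against 45.9 in WT air. Transcript was thus counted in both mutant libraries, below the level of the matching WT library in each condition. The gene overlaps a locus on the opposite strand, and whether strand was used is not given in the sources used here. Its paralogue MYC3 was at 38.8 RPKM at R3 compared with 30.6 in air. The other paralogue MYC4 was at 11.4 RPKM in myc2 R3 and 10.2 in myc2 air, a ratio whose sign differed between scalings. The jasmonate receptor gene COI1 was at 15.4 RPKM at R3, against 8.84 in air.

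In the myc2 pair, 4175 of the 17737 genes (23.5%) lay at least 2-fold higher at R3 and 2031 (11.5%) at least 2-fold lower, and these 2 shares are the background for every count below. At least 8-fold differences were found for 706 genes that were higher and 97 that were lower at R3. The median gene had a log2 ratio of 0.30. When both libraries were rescaled to the median of their ratios, that median was 0.03, with 3052 genes higher (17.2%) and 2849 lower (16.1%). The higher genes were thus 67.3% of all 2-fold differences as deposited and 51.7% after that rescaling. Each list median below has the all-gene median subtracted, so 0 marks the middle of the genes compared, and a change of scaling moves them far less than the counts.

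**Figure D1:**
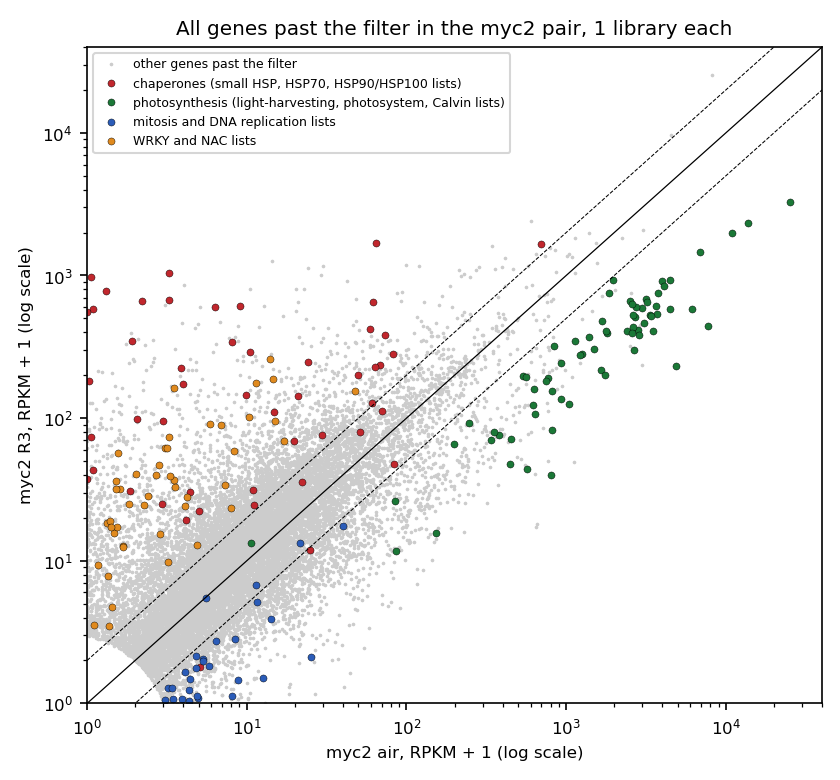
RPKM + 1 in myc2 R3 (vertical, log scale) against myc2 air (horizontal, log scale) for the 17737 genes past the filter, 1 library per group. The dashed lines mark a 2-fold difference. Of the 70 photosynthesis genes 69 lie below the lines, as do most cell division genes, and most chaperone genes and all WRKY and NAC genes of the lists lie above.

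The gene lists fell into a wide order, from small heat shock proteins at one end to the light-harvesting proteins at the other. Of 61 lists with at least 4 members past the filter, 29 had a median at least 1 log2 unit away from that of all genes. In bulk tissue, fewer cells of a type and less RNA per cell cannot be told apart, and this holds for all lists below.

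**Figure D2:**
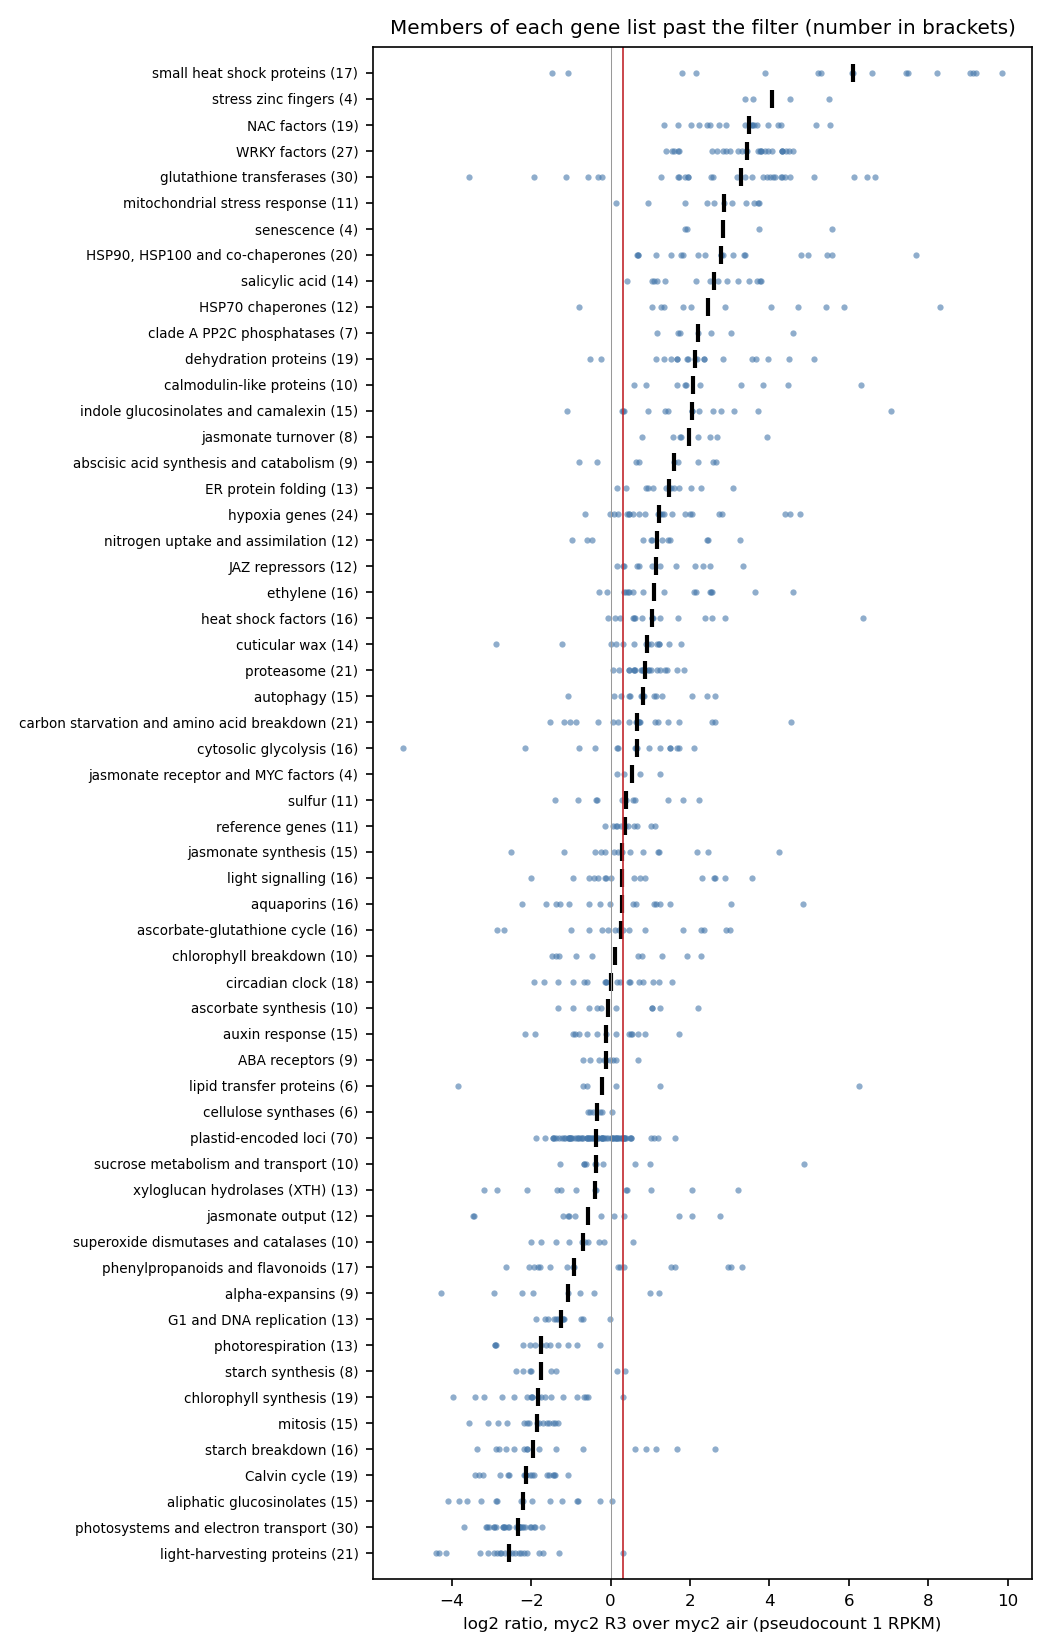
Log2 ratio of myc2 R3 over myc2 air (horizontal) for each member past the filter (blue points) of the gene lists (rows, number of members in brackets), with the list median as a black bar. The red line is the median of all genes, 0.30, and the grey line is 0. Small heat shock proteins stand highest and light-harvesting proteins lowest, and several lists in the middle spread widely to both sides.

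Of all lists, small heat shock proteins had the highest median. These proteins hold unfolding proteins in a soluble state, and 15 of the 17 listed genes stood at least 2-fold higher at R3, with 2 lower, with a list median of 5.81. The list holds members chosen when earlier results of these data were known. A wider set, annotated as HSP20-like chaperones, had 25 genes past the filter and shares members with the list. Its median relative to all genes was only 0.33, as 11 genes rose 2-fold or more while 2 fell. The list median thus describes the chosen members and not that whole annotated family. HSP17.6A (AT5G12030, chr5:3883957-3884838, TAIR10.1) was at 977 RPKM in myc2 R3, against 0.0520 in myc2 air, and the air value stands for about 1.40 fragments. Its neighbour HSP17.6II (AT5G12020, chr5:3882231-3883111) was at 581 RPKM at R3 compared with 0.0935 in air, about 2.51 fragments in air. HSP17.4 (AT3G46230) was at 776 RPKM in myc2 R3 and 0.317 in myc2 air. AT1G53540, annotated as an HSP20-like chaperone, was at 557 RPKM at R3 and listed at 0 in air. The plastid protein gene HSP21 (AT4G27670) was at 36.4 at R3 and also listed at 0 in air. The list median takes in these 2 through the added 1 RPKM. Over all 17 genes 120271.2 estimated fragments at R3 stood against 4008.9 in air. AT2G19310, the member highest in air and named after its values were seen, was at 236 RPKM at R3, against 67.4 in air. The members on the lower side, both annotated as HSP20-like proteins, were AT4G21870 and AT5G47600. AT4G21870 was at 10.9 RPKM at R3, against 23.9 in air. AT5G47600 was at 0.812 RPKM at R3 compared with 4.07 in air.

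Promoters of small heat shock protein genes are known to carry heat shock elements, built from inverted repeats of GAA. The letters GAANNTTC, which read the same on both strands, were searched for in the 250 bases before the annotated gene start. They were found in 4 of the 17 small heat shock protein promoters (23.5%) and in 9.47% of 26711 promoters of protein-coding genes. The other arrangement of the repeat, TTCNNGAA, added after the data were seen, was found in 5 of the 17 (29.4%) and in 7.60% of all promoters, and the pair of motifs can overlap. Lists that were lower at R3 held TTCNNGAA too, in 5 of 19 Calvin cycle, 4 of 17 mitosis and 6 of 30 photosystem promoters. It was found in 0 of 12 HSP70 promoters. GAANNTTC was found in 0 of 12 HSP70 promoters and 2 of 20 promoters of the HSP90 and HSP100 list, and in larger shares than for small heat shock proteins in other lists, among them 5 of 16 for glycolysis and 4 of 11 for calmodulin-like proteins. These matches describe the letters in this window only. The promoters below belong to 2 of the genes furthest above air. They are given 5′ to 3′ on the gene strand and end 1 base before the annotated start (TAIR10.1 sequence), with GAANNTTC in capitals. They cover chr3:16984868-16985117 on the minus strand for HSP17.4 and chr1:19980049-19980298 on the plus strand for AT1G53540.
HSP17.4: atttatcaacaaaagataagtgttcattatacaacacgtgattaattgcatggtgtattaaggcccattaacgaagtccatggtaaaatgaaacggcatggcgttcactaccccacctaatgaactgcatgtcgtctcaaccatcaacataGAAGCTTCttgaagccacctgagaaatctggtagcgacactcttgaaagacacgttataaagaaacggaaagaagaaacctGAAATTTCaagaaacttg
AT1G53540: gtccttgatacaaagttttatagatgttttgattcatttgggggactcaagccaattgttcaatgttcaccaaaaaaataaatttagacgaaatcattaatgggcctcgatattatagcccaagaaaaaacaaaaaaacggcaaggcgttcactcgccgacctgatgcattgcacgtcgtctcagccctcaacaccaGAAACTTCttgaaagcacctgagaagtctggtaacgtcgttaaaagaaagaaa
In HSP17.4 the matches start 99 and 18 bases before the gene, and in AT1G53540 the match starts 53 bases before it. The HSP17.6A promoter window held no GAANNTTC, but it held the other arrangement, TTCNNGAA, as ttctcgaa.

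The larger chaperones stood higher as well. HSP70 proteins refold clients with ATP, and 11 of 12 stood at least 2-fold higher at R3, or 9 of 12 with 1 lower under median-of-ratios scaling, with a list median of 2.16. HSP70 (AT3G12580) was at 1034 RPKM in myc2 R3 and 2.27 in myc2 air, a log2 ratio of 8.31. HSP70B (AT1G16030) was at 224 RPKM at R3, against 2.86 in air, and Hsp70-2 (AT5G02490) at 343 RPKM at R3 compared with 7.06 in air. The largest gain in RPKM of any nuclear chaperone gene belonged to AT3G09440, an HSP70 family gene, at 1699 RPKM in myc2 R3 and 63.1 in myc2 air, while the constitutive HSC70-1 (AT5G02500) was at 1664 RPKM at R3, against 695 in air. The exception was a plastid form, CPHSC70-1 (AT4G24280), at 46.9 RPKM at R3 compared with 82.8 in air. The other plastid form, CPHSC70-2, was at 126 RPKM in myc2 R3 and 60.2 in myc2 air. HSP90, HSP100 and their co-chaperones had 17 of 20 members at least 2-fold higher and none lower, with a median of 2.47. HSP90.1 (AT5G52640), the stress-induced cytosolic form, was at 669.5 RPKM at R3, against 2.26 in air. HSP90.2 (AT5G56030), which shares sequence with other members of the family, was at 646 RPKM at R3 compared with 61.1 in air. HSP101 (AT1G74310), the cytosolic disaggregase, was at 172 RPKM in myc2 R3 and 2.97 in myc2 air. The co-chaperone HOP3 (AT4G12400) was at 97.7 RPKM at R3, against 1.06 in air. In sum the 49 genes of these 3 lists made up 2.66% of all RPKM in myc2 R3, against 0.280% in myc2 air.

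Heat shock factors, the transcription factors that bind heat shock elements, differed much less as a family. Of 21 genes 16 passed the filter, and 9 of these were at least 2-fold higher, or 5 under median-of-ratios scaling, with a median of 0.74. HSFA2 (AT2G26150), a factor made under stress, was at 99.5 RPKM at R3 compared with 0.230 in air. HSFA4A (AT4G18880) was at 37.9 RPKM in myc2 R3 and 4.28 in myc2 air. HSFB2A (AT5G62020), of the class without an activation domain, was at 19.7 RPKM at R3, against 2.55 in air. These 3 had the highest ratios of the family. The general regulator HSFA1B (AT5G16820) was at 4.78 RPKM at R3 compared with 4.99 in air, a ratio whose sign differed between scalings. Folding in the endoplasmic reticulum was represented by 13 genes, 9 of them at least 2-fold higher and none lower, with a median of 1.18. BZIP60 (AT1G42990), a factor of the unfolded protein response, was at 175 RPKM in myc2 R3 and 19.8 in myc2 air. The calreticulin gene CRT3 (AT1G08450) was at 87.1 RPKM at R3, against 17.3 in air, and the calnexin gene CNX1 (AT5G61790) at 222 RPKM at R3 compared with 72.0 in air.

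**Figure D3:**
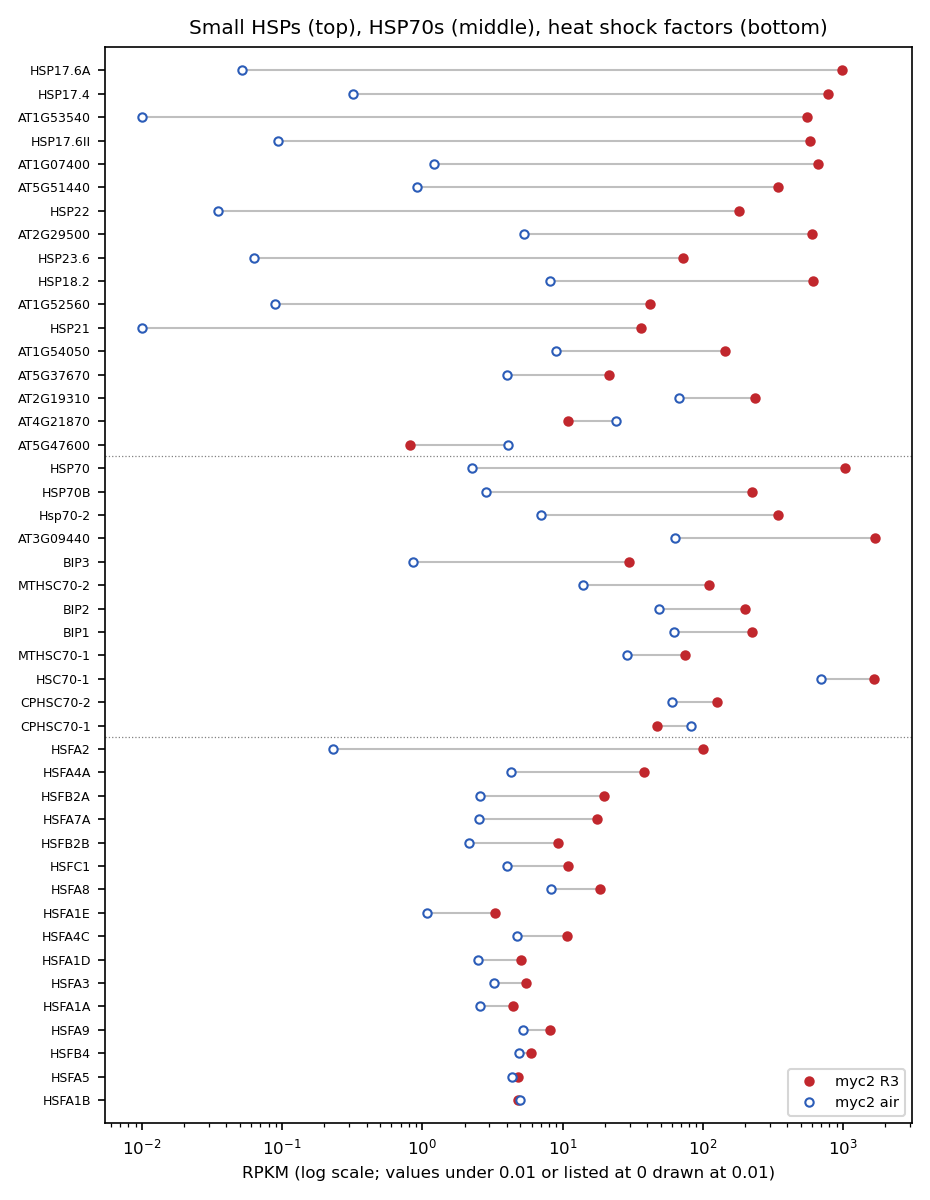
RPKM (horizontal, log scale) of each small heat shock protein, HSP70 and heat shock factor gene past the filter (rows) in myc2 R3 (red) and myc2 air (open blue), 1 library each. Genes listed at 0 are drawn at 0.01 RPKM. HSP17.6A reaches 977 RPKM at R3, and several small heat shock protein genes are near the lower edge in air, while the heat shock factors lie at 99.5 RPKM or below at R3 and, apart from HSFA2, differ less.

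Protein turnover genes lay nearer to all genes. Every one of the 21 proteasome subunit genes had a positive log2 ratio as deposited, 7 were at least 2-fold higher (4 under median-of-ratios scaling, a share near the background) and the list median was 0.56. The base subunit gene RPT3 (AT5G58290) was at 149 RPKM in myc2 R3 and 40.7 in myc2 air, and the lid subunit gene RPN6 (AT1G29150) at 95.8 RPKM at R3, against 29.2 in air. For RPN1A and AT2G32730 the direction turned under a rescaling. Of 15 autophagy genes, 6 were at least 2-fold higher and 1 lower (4 and 1 under median-of-ratios scaling), with a median of 0.51. The ATG8 family, whose proteins mark the autophagosome membrane, was split. ATG8H (AT3G06420) was at 30.5 RPKM at R3 compared with 4.10 in air. ATG8B (AT4G04620) was at 38.0 RPKM in myc2 R3 and 6.26 in myc2 air, and ATG8A (AT4G21980) at 70.8 RPKM at R3, against 16.3 in air. On the other side, ATG8F (AT4G16520) was at 35.9 RPKM at R3 compared with 77.1 in air. The cargo receptor gene NBR1 (AT4G24690) was at 133 RPKM in myc2 R3 and 60.2 in myc2 air.

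Glutathione transferases, which join glutathione to toxic or oxidised compounds, were the highest of the enzyme lists, with 24 of 30 genes at least 2-fold higher, 3 lower and a median of 2.99. GSTU24 (AT1G17170) was at 265 RPKM at R3, against 1.62 in air, a log2 ratio of 6.67. GSTU8 (AT3G09270) was at 156 RPKM at R3 compared with 1.25 in air. GSTF7 (AT1G02920), which shares words with other transferase genes, was at 1270.3 RPKM in myc2 R3 and 13.4 in myc2 air. The 31 listed genes held 1.45% of all RPKM in myc2 R3, against 0.371% in myc2 air. Of 9 genes past the filter annotated as glutathione S-transferase family proteins, 4 were at least 2-fold higher and none lower, with a median of 0.22. The abundant list member GSTF9 (AT2G30860) was at 650.4 RPKM at R3, against 754 in air. GSTU20 (AT1G78370), the member with the lowest ratio, was at 45.6 RPKM at R3 compared with 548 in air.

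Respiratory bypass genes were higher too. Of 11 genes of the mitochondrial stress response 9 were at least 2-fold higher and none lower, with a median of 2.54. Alternative oxidase passes electrons to oxygen past the cytochrome chain, and its gene AOX1D (AT1G32350) was at 22.2 RPKM in myc2 R3 and 0.728 in myc2 air. AOX1A (AT3G22370) was at 116 RPKM at R3, against 18.2 in air. BCS1 (AT3G50930), an AAA-type ATPase of the mitochondrial outer membrane, was at 50.5 RPKM at R3 compared with 2.92 in air. All 4 listed zinc finger repressor genes of the stress response were at least 2-fold higher, with a median of 3.75. ZAT12 (AT5G59820) was at 217 RPKM in myc2 R3 and 3.78 in myc2 air. ZAT6 (AT5G04340) was at 86.4 RPKM at R3, against 2.83 in air, and ZAT7 (AT3G46090) at 46.6 RPKM at R3 compared with 2.95 in air. The iron store ferritin gene FER1 (AT5G01600) was at 208 RPKM in myc2 R3 and 36.5 in myc2 air, while FER4 (AT2G40300) was at 9.06 RPKM at R3, against 16.1 in air.

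Enzymes of the ascorbate-glutathione cycle, which removes hydrogen peroxide, lay on both sides. As a list they had a median of −0.04, a direction that turned under alternatives, with 5 of 16 at least 2-fold higher and 3 lower. The cytosolic peroxidase gene APX1 (AT1G07890) was at 1091 RPKM at R3 compared with 212 in air. The monodehydroascorbate reductase genes, which return ascorbate to use, included MDAR3 (AT3G09940) at 10.0 RPKM in myc2 R3 and 0.367 in myc2 air and MDAR2 (AT5G03630) at 197 RPKM at R3, against 25.4 in air. The thylakoid peroxidase gene TAPX (AT1G77490) was at 7.02 RPKM at R3 compared with 56.9 in air. The others at least 2-fold lower, named after their values were seen, were the plastid DHAR3 at 13.8 RPKM in myc2 R3 and 93.5 in myc2 air and MDAR6 at 11.1 RPKM at R3, against 23.3 in air, while the stromal SAPX was at 49.6 RPKM at R3 compared with 26.6 in air. Among superoxide dismutases and catalases, 4 of 10 genes were at least 2-fold lower and none higher, with a median of −0.99. The plastid dismutase gene FSD2 (AT5G51100) was at 2.61 RPKM in myc2 R3 and 13.5 in myc2 air, and CSD2 (AT2G28190), also of the plastid, at 97.1 RPKM at R3, against 332 in air. The catalase gene CAT3 (AT1G20620) was at 299.7 RPKM at R3 compared with 781 in air. The cytosolic CSD1 (AT1G08830) was at 161 RPKM in myc2 R3 and 109 in myc2 air. In ascorbate synthesis 4 of 10 genes were at least 2-fold higher and 1 lower, or 1 and 2 under median-of-ratios scaling. PMI2 (AT1G67070), a phosphomannose isomerase gene, was at 9.19 RPKM at R3, against 1.23 in air, and the galactose dehydrogenase gene AT4G33670 at 11.7 RPKM at R3 compared with 30.9 in air. VTC2, the controlling step, was at 273 RPKM in myc2 R3 and 114 in myc2 air, and VTC1 at 90.9 RPKM at R3, against 43.2 in air. For glutathione synthesis, GSH1 was at 61.7 RPKM at R3 compared with 44.8 in air and GSH2 at 26.3 RPKM in myc2 R3 and 38.7 in myc2 air.

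WRKY factors, which bind W-box promoters in defence and senescence, were higher without exception in the list, with all 27 genes at least 2-fold higher at R3 and a median of 3.12. WRKY29 (AT4G23550) was at 35.3 RPKM at R3, against 0.514 in air. WRKY46 (AT2G46400) was at 72.5 RPKM at R3 compared with 2.25 in air. WRKY75 (AT5G13080), which promotes leaf senescence, was at 31.1 RPKM in myc2 R3 and 0.512 in myc2 air. All 3 stood below 3 RPKM in air. All 19 NAC factors of the list were at least 2-fold higher as well, with a median of 3.18. NAC032 (AT1G77450) was at 160.4 RPKM at R3, against 2.51 in air. NAC047 (AT3G04070) was at 55.6 RPKM at R3 compared with 0.562 in air, and NAC019 (AT1G52890), a factor of abscisic acid and jasmonate responses, at 60.6 RPKM in myc2 R3 and 2.15 in myc2 air. NAC102 (AT5G63790) had the highest mean level of the list, at 257 RPKM at R3, against 13.0001 in air. Both lists hold chosen members of these families and were drawn up with results of these data known, so their uniform direction is a description of the members and not of either whole family.

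Calcium sensors of the calmodulin-like class had 8 of 10 genes at least 2-fold higher and none lower, with a median of 1.78. CML37 (AT5G42380) was at 124 RPKM at R3 compared with 0.581 in air. The calcium-binding EF-hand gene AT3G47480 was at 253 RPKM in myc2 R3 and 10.5 in myc2 air, and AT3G01830, of the same annotation, at 15.8 RPKM at R3, against 0.184 in air. Of 6 senescence genes 4 passed the filter, all of them at least 2-fold higher. SAG13 (AT2G29350) was at 212 RPKM at R3 compared with 14.8 in air. SAG21 (AT4G02380), a late embryogenesis abundant protein of the mitochondrion, was at 606 RPKM in myc2 R3 and 11.8 in myc2 air.

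Abscisic acid controls stomata and dehydration responses, and its pathway differed by step. In synthesis and catabolism 5 of 9 genes were at least 2-fold higher, with a median of 1.299. NCED3 (AT3G14440), the controlling step of synthesis, was at 12.4 RPKM at R3, against 1.14 in air. The hydroxylases that remove the hormone stood higher too. CYP707A1 (AT4G19230) was at 12.6 RPKM at R3 compared with 1.296 in air, and CYP707A3 (AT5G45340) at 10.1 RPKM in myc2 R3 and 1.42 in myc2 air. The short-chain dehydrogenase gene ABA2 (AT1G52340) was at 6.21 RPKM at R3, against 11.5 in air. None of the 9 receptor genes differed 2-fold as deposited, and 1, PYL4, was lower under median-of-ratios scaling. PYR1 (AT4G17870) was at 54.7 RPKM at R3 compared with 79.5 in air, and PYL4 (AT2G38310) at 42.2 RPKM in myc2 R3 and 68.7 in myc2 air. PYL7 (AT4G01026) lay on the other side, at 10.9 RPKM at R3, against 6.39 in air. All 7 clade A phosphatase genes past the filter, which act against the pathway, were at least 2-fold higher (6 under median-of-ratios scaling), with a median of 1.90. HAI1 (AT5G59220) was at 50.7 RPKM at R3 compared with 1.14 in air. HAB1 (AT1G72770) was at 75.0 RPKM in myc2 R3 and 8.31 in myc2 air, and ABI1 (AT4G26080) at 119 RPKM at R3, against 19.7 in air. Among dehydration proteins 17 of 19 were at least 2-fold higher and none lower, with a median of 1.83. DREB2A (AT5G05410), a factor of drought and heat responses, was at 89.7 RPKM at R3 compared with 1.62 in air. The dehydrin gene LTI30 (AT3G50970) was at 112 RPKM in myc2 R3 and 4.01 in myc2 air, and the galactinol synthase gene GOLS1 (AT2G47180) at 103 RPKM at R3, against 5.71 in air. KIN2 (AT5G15970), a cold-induced gene already high in air, was at 1328 RPKM at R3 compared with 412 in air. P5CS1 (AT2G39800), the proline synthesis gene, lay on the other side, at 16.6 RPKM in myc2 R3 and 24.1 in myc2 air.

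Salicylic acid genes had 13 of 14 members at least 2-fold higher, or 10 under median-of-ratios scaling, with a median of 2.30. The conjugating enzyme gene PBS3 (AT5G13320) was at 41.3 RPKM at R3, against 2.06 in air. The regulator CBP60G (AT5G26920) was at 46.0 RPKM at R3 compared with 2.46 in air, and DMR6 (AT5G24530), which hydroxylates salicylic acid, at 65.8 RPKM in myc2 R3 and 4.14 in myc2 air. A pair of defence outputs of this pathway, named after their values were seen, stood apart from the WT pair. PR2 (AT3G57260), a glucanase gene, was at 111 RPKM at R3, against 53.5 in air in myc2, and at 11.98 in WT R3, against 73.4 in WT air. PR1 (AT2G14610) was at 34.2 RPKM at R3 compared with 25.4 in air in myc2, and at 2.04 in WT R3, against 12.9 in WT air. The WT pair shares no library with the myc2 pair, and with 1 library in each group no difference between the pairs was tested here or below.

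Ethylene genes had 8 of 16 members at least 2-fold higher and none lower, with a median of 0.79. The ACC synthase gene ACS2 (AT1G01480) was at 26.4 RPKM in myc2 R3 and 0.138 in myc2 air, and ACS7 (AT4G26200) was at 11.5 at R3 and listed at 0 in air. Of 24 low-oxygen genes 14 were at least 2-fold higher and none lower, with a median of 0.92. HB1 (AT2G16060), a haemoglobin gene, was at 129 RPKM at R3, against 3.76 in air. HRE2 (AT2G47520), an ethylene response factor of the oxygen-sensing group, was at 28.1 RPKM at R3 compared with 0.385 in air. RAP2.3 (AT3G16770), a factor of the same group, was at 1089 RPKM in myc2 R3 and 271 in myc2 air. The fermentation gene ADH1 was at 147 RPKM at R3, against 5.47 in air. HRA1 (AT3G10040), a repressor in the low-oxygen response, lay on the other side, at 2.89 RPKM at R3 compared with 5.11 in air.

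Jasmonate genes, the pathway of the mutated factor, differed by step. Biosynthesis as a list had a median of −0.01, with a direction that turned under alternatives, 5 of 15 genes at least 2-fold higher and 2 lower. Under median-of-ratios scaling these were 3 and 2, near the shares of all genes under that scaling (17.2% and 16.1%). AOC3 (AT3G25780), an allene oxide cyclase gene, was at 58.9 RPKM in myc2 R3 and 2.18 in myc2 air. The peroxisomal oxidase gene ACX1 (AT4G16760) was at 101 RPKM at R3, against 17.8 in air. The plastid lipoxygenase gene LOX2 (AT3G45140) was at 32.5 RPKM at R3 compared with 189.9 in air. Members thus lay far to both sides of the median. Turnover enzymes stood higher, with 7 of 8 members past the filter at least 2-fold higher and a median of 1.68. The sulfotransferase ST2A (AT5G07010), which acts on hydroxylated jasmonate, was at 29.8 RPKM in myc2 R3 and 0.988 in myc2 air. AT2G38240, annotated as an oxygenase that uses 2-oxoglutarate and iron, was at 7.07 RPKM at R3, against 0.266 in air. AT5G05600, of the same annotation, was at 42.3 RPKM at R3 compared with 6.59 in air. The amidohydrolase gene IAR3 (AT1G51760) was at 62.5 RPKM in myc2 R3 and 12.9 in myc2 air. In the WT pair, 9 of 10 turnover genes were at least 2-fold higher, with a median of 2.79 in WT, against a WT background of 31.3% higher and 10.1% lower.

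JAZ repressors had 7 of 12 members at least 2-fold higher (5 under median-of-ratios scaling) and none lower, with a median of 0.85. JAZ1 (AT1G19180) was at 58.3 RPKM at R3, against 4.86 in air. JAZ10 (AT5G13220) was at 8.83 RPKM at R3 compared with 0.954 in air, and AT3G22275, annotated as a jasmonate ZIM-domain protein, at 8.08 RPKM in myc2 R3 and 0.595 in myc2 air. The G-box letters CACGTG, the site type bound by MYC factors and the same on both strands, were found in the 250 bases before 5 of 13 JAZ genes (38.5%), and before 6.58% of all protein-coding genes. They were as frequent before genes of protein folding in the endoplasmic reticulum (5 of 13), and were found before 2 of 17 genes of jasmonate synthesis and 1 of 13 genes of jasmonate output.

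Outputs of the jasmonate pathway were divided, with 3 of 12 genes at least 2-fold higher, 5 lower and a median of −0.87. TAT3 (AT2G24850), for tyrosine aminotransferase, stood at 58.3 RPKM at R3, against 7.72 in air. The storage protein gene VSP1 (AT5G24780) was at 13.2 RPKM at R3 compared with 153 in air, and VSP2 (AT5G24770) at 25.4 RPKM in myc2 R3 and 30.1 in myc2 air. The defensin gene PDF1.2A (AT5G44420) was at 0.930 RPKM at R3, against 20.3 in air in myc2, and at 11.8 in WT R3, against 14.3 in WT air.

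Photosynthesis was the low end of the response. None of the 70 nuclear genes in the light-harvesting, photosystem and Calvin cycle lists was 2-fold higher, and 69 were at least 2-fold lower. The medians were −2.87 for light-harvesting proteins, −2.64 for photosystems and electron transport and −2.43 for the Calvin cycle. Together these genes held 5.55% of all RPKM in myc2 R3, against 30.8% in myc2 air. LHCB1.3 (AT1G29930) had the largest loss in RPKM of any gene, at 3271 RPKM at R3 compared with 25076 in air. LHCB1.4 (AT2G34430) was at 231 RPKM in myc2 R3 and 4851 in myc2 air, a log2 ratio of −4.39. LHCB2.3 (AT3G27690) was at 39.1 RPKM at R3, against 803 in air, and LHCB1.2 (AT1G29910) at 441 RPKM at R3 compared with 7759 in air. LHCB1.2, LHCB1.3 and LHCB1.4 share stretches of sequence with other genes, so how their reads were divided is uncertain. The exception in the antenna list was LHCB7 (AT1G76570), at 12.3 RPKM in myc2 R3 and 9.69 in myc2 air. Among photosystem genes, FNR2 (AT1G20020), the leaf ferredoxin reductase, was at 43.3 RPKM at R3, against 567 in air, and PSBR (AT1G79040) at 1459.7 RPKM at R3 compared with 6856 in air. In the Calvin cycle, RBCS1A (AT1G67090), a Rubisco small subunit gene, was at 2345 RPKM in myc2 R3 and 13700.2 in myc2 air. RBCS3B (AT5G38410), another small subunit gene, was at 579 RPKM at R3, against 6170.0 in air. PGK1 (AT3G12780), for phosphoglycerate kinase, was at 81.5 RPKM at R3 compared with 817 in air. HCEF1 (AT3G54050), the fructose bisphosphatase, was at 46.8 RPKM in myc2 R3 and 445 in myc2 air.

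Linked pathways were also mostly lower. In photorespiration 11 of 13 genes were at least 2-fold lower and none higher, with a median of −2.05. The glycine cleavage gene GDCH (AT2G35370) was at 78.7 RPKM at R3, against 601 in air. SHM1 (AT4G37930), the serine hydroxymethyltransferase that follows it, was at 76.5 RPKM at R3 compared with 577 in air. The plastid glutamine synthetase GLN2 (AT5G35630), which takes up the ammonium released, was at 68.7 RPKM in myc2 R3 and 511 in myc2 air. In chlorophyll synthesis 14 of 19 were at least 2-fold lower and none higher, with a median of −2.12. The light-dependent reductase PORB (AT4G27440) was at 39.7 RPKM at R3, against 641 in air. PCB2 (AT5G18660), the divinyl reductase, was at 6.62 RPKM at R3 compared with 80.9 in air. CHLI2 (AT5G45930), a subunit of magnesium chelatase, was at 3.18 RPKM in myc2 R3 and 36.8 in myc2 air. GUN4 (AT3G59400), a cofactor of magnesium chelatase, was at 169 RPKM at R3, against 136 in air, a ratio whose sign differed between scalings. Chlorophyll breakdown had 3 of 10 genes higher and 3 lower, and the direction of its median, −0.19, turned when the filter was left out. NYE2 (AT4G11910), a stay-green gene for magnesium removal, was at 7.46 RPKM at R3 compared with 0.751 in air, and its relative NYE1 (AT4G22920) at 32.8 RPKM in myc2 R3 and 7.94 in myc2 air. The chlorophyllase gene CLH1 (AT1G19670) was at 37.7 RPKM at R3, against 107 in air.

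Starch genes were mostly lower, for synthesis and breakdown alike. In synthesis 6 of 8 were at least 2-fold lower and none higher, with a median of −2.05. ADG1 (AT5G48300), the small subunit of ADP-glucose pyrophosphorylase, was at 22.0 RPKM at R3 compared with 119.6 in air. The granule-bound synthase gene GBSS1 (AT1G32900) lay on the other side, at 12.2 RPKM in myc2 R3 and 9.32 in myc2 air. In breakdown 10 of 16 were at least 2-fold lower and 3 higher, with a median of −2.25. The plastid phosphorylase gene PHS1 (AT3G29320) was at 3.63 RPKM at R3, against 46.4 in air. DPE1 (AT5G64860), a disproportionating enzyme, was at 2.05 RPKM at R3 compared with 21.4 in air, and the glucan dikinase gene GWD1 (AT1G10760) at 6.51 RPKM in myc2 R3 and 52.0 in myc2 air. The stress-related amylase BAM1 (AT3G23920) was at 145 RPKM at R3, against 22.5 in air, and BAM3 (AT4G17090), the main plastid beta-amylase at night, at 293 RPKM at R3 compared with 158 in air. The cell wall invertase CWINV1 (AT3G13790) stood apart from the sucrose list, at 144 RPKM in myc2 R3 and 3.92 in myc2 air, while the list median was −0.68. Cytosolic glycolysis had 6 of 16 genes at least 2-fold higher and 2 lower (5 and 3 under median-of-ratios scaling), with a median of 0.35. GAPC1 (AT3G04120) was at 722 RPKM at R3, against 166 in air. The aldolase gene FBA5 (AT4G26530) had the lowest log2 ratio among genes averaging 5 RPKM or more, at 16.2 RPKM at R3 compared with 642 in air.

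Nitrogen genes were mostly higher as deposited, with 8 of 12 at least 2-fold higher (5 with 1 lower under median-of-ratios scaling) and a median of 0.86. The cytosolic glutamine synthetase GLN1;1 (AT5G37600) was at 445 RPKM in myc2 R3 and 45.3 in myc2 air. The ammonium transporter gene AMT1;1 (AT4G13510) was at 323 RPKM at R3, against 58.5 in air. The gene of the plastid nitrite reductase, NIR1 (AT2G15620), was at 28.2 RPKM at R3 compared with 56.4 in air. The 2 forms of glutamine synthetase thus lay on opposite sides, GLN1;1 higher and the plastid GLN2 lower at R3. In carbon starvation and amino acid breakdown 7 of 21 were at least 2-fold higher and 3 lower, shares not far from the background, with a median of 0.37. BGLU30 (AT3G60140), a glucosidase gene induced in darkness, was at 23.0 RPKM in myc2 R3 and 0.0237 in myc2 air, about 1.69 fragments in air. GDH2 (AT5G07440), a glutamate dehydrogenase gene, was at 185 RPKM at R3, against 29.0 in air. The raffinose synthase family gene DIN10 (AT5G20250) was at 28.8 RPKM at R3 compared with 84.8 in air.

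Genes of mitosis and of the forming cell plate were lower without exception among those that could be compared. Of 17 listed genes 15 passed the filter, and at R3 all 15 lay at least 2-fold below air, with a median of −2.16. They passed it only through their air values, which ran from 2.10 to 24.1 RPKM, while those at R3 ran from 0.0427 to 1.12. None would have passed on its R3 value alone. KNOLLE (AT1G08560), the syntaxin of the forming cell plate, was at 1.12 RPKM in myc2 R3 and 24.1 in myc2 air. CDC20.1 (AT4G33270), an activator of the anaphase-promoting complex, was at 0.496 RPKM at R3, against 11.6 in air. The B-type cyclin gene CYCB1;2 (AT5G06150) was at 0.132 RPKM at R3 compared with 7.07 in air, and at 0.0913 in WT R3, against 2.64 in WT air. Across the 15 genes the estimated fragments came to 166.8 at R3, against 4454.1 in air, so single values at R3 rest on few fragments but the sum does not. Low levels understate their ratios on the scale used, and the list median was −4.27 with a pseudocount of 0.1 RPKM and −0.86 with 5. In the WT pair 5 of these genes passed the filter, all at least 2-fold lower. Over all 17 listed genes, without the filter, the sum was 4.93 RPKM in myc2 R3 and 86.8 in myc2 air, and 34.2 in WT air. The meristem identity genes KNAT1 (AT4G08150) and STM (AT1G62360) were not lower. KNAT1 was at 14.6 RPKM in myc2 R3 and 6.32 in myc2 air. STM was at 7.98 RPKM at R3, against 6.68 in air, a ratio whose sign differed between scalings, and their part in the result was not tested.

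Promoters of genes for the G2 and M phases are known to carry mitosis-specific activator elements with the core AACGG. Read on either strand (AACGG or CCGTT), these letters were found in the 250 bases before 12 of the 17 mitosis genes (70.6%), and before 20.6% of all 26711 protein-coding genes. Before the 13 genes of the G1 and replication list they were found 2 times (15.4%). They were found before 23.6% of all genes at least 2-fold lower at R3 and before 20.2% of those at least 2-fold higher. The promoters of 3 B-type cyclin genes are shown as examples that hold 3 or 4 matches each. CYCB2;2 (AT4G35620) held 3 as well, and CYCB1;4 (AT2G26760) held none. The sequences are given with the matches in capitals, 5′ to 3′ on the gene strand, which is the minus strand for all 3. They cover chr5:1861704-1861953 for CYCB1;2, chr3:3627274-3627523 for CYCB1;3 (AT3G11520) and chr1:7137829-7138078 for CYCB2;3 (AT1G20610), in TAIR10.1.
CYCB1;2: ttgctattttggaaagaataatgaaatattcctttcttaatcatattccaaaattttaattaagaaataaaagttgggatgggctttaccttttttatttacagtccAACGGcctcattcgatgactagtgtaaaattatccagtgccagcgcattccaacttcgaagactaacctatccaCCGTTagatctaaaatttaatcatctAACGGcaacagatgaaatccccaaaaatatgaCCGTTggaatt
CYCB1;3: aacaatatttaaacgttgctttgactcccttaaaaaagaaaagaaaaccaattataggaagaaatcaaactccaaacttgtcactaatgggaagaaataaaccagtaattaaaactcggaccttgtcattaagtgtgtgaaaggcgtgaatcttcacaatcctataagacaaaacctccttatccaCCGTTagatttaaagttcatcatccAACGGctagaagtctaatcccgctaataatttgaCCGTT
CYCB2;3: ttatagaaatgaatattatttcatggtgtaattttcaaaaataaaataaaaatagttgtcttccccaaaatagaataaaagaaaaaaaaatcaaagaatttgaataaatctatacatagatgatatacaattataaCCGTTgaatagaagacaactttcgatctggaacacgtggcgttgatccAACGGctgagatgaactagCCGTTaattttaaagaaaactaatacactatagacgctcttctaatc
CYCB1;3 was at 0.0690 RPKM at R3 compared with 2.46 in air and CYCB2;3 at 0.0599 RPKM in myc2 R3 and 2.10 in myc2 air. A match is a description of the sequence and not a measured site.

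DNA replication genes had 10 of 13 members at least 2-fold lower and none higher, with a median of −1.54. The sliding clamp gene PCNA1 (AT1G07370) was at 2.89 RPKM at R3, against 13.2 in air. The helicase subunit gene MCM7 (AT4G02060) was at 0.823 RPKM at R3 compared with 4.78 in air. The ribonucleotide reductase gene TSO2 (AT3G27060) was at 16.6 RPKM in myc2 R3 and 39.2 in myc2 air. Of the D-type cyclins, CYCD3;1 (AT4G34160) was at 1.85 RPKM at R3, against 7.48 in air, and CYCD3;3 (AT3G50070), named after its values were seen, at 4.49 RPKM at R3 compared with 4.56 in air, a ratio whose sign differed between scalings. In the WT pair 1 of the 13 genes was at least 2-fold lower as deposited, against a WT background of 10.1%. The median of all genes as deposited was 0.57 in WT and 0.30 in myc2, so these counts are not on a like scale. With that median subtracted, the WT list median was −1.21. The 13 genes summed to 132 RPKM in myc2 air and 78.0 in WT air.

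Cell expansion genes were mixed. Alpha-expansins, which loosen the wall, had 1 of 9 genes at least 2-fold higher and 5 lower (0 and 6 under median-of-ratios scaling), with a median of −1.38. EXPA8 (AT2G40610) was at 3.68 RPKM in myc2 R3 and 89.7 in myc2 air, a log2 ratio of −4.28. EXPA11 (AT1G20190) was at 4.86 RPKM at R3, against 43.5 in air, and EXPA1 (AT1G69530) at 39.8 RPKM at R3 compared with 156 in air. EXPA10 (AT1G26770) lay on the other side, at 49.0 RPKM in myc2 R3 and 20.3 in myc2 air. Xyloglucan-modifying genes had 3 of 13 higher and 5 lower (2 and 6 under median-of-ratios scaling), with a median of −0.70. XTH9 (AT4G03210) was at 14.4 RPKM at R3, against 139.7 in air, and XTH6 (AT5G65730) at 25.9 RPKM at R3 compared with 196 in air. XTH23 (AT4G25810) was at 25.7 RPKM in myc2 R3 and 1.90 in myc2 air. None of 6 cellulose synthase genes past the filter differed 2-fold in myc2. In WT 4 of 8 were higher as deposited, against a WT background of 31.3%. This WT count was not taken under median-of-ratios scaling. The list median was −0.65 in myc2 and 0.45 in WT. Of those that build the primary wall, CESA1 (AT4G32410) was at 33.1 RPKM at R3, against 49.8 in air in myc2, and at 66.1 in WT R3, against 34.3 in WT air. CESA3 (AT5G05170) was at 45.1 RPKM at R3 compared with 61.4 in air in myc2, and at 74.5 in WT R3, against 39.0 in WT air. CESA6 (AT5G64740) was at 36.1 RPKM at R3 compared with 35.4 in air in myc2, a ratio whose sign differed between scalings, and at 70.4 in WT R3, against 23.5 in WT air. In auxin response, 1 of 15 genes was at least 2-fold higher and 2 were lower (1 and 5 under median-of-ratios scaling), with a median of −0.42. The efflux carrier gene PIN7 (AT1G23080) was at 7.70 RPKM at R3, against 38.0 in air. The repressor gene IAA17 (AT1G04250) was at 4.83 RPKM at R3 compared with 20.8 in air.

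**Figure D4:**
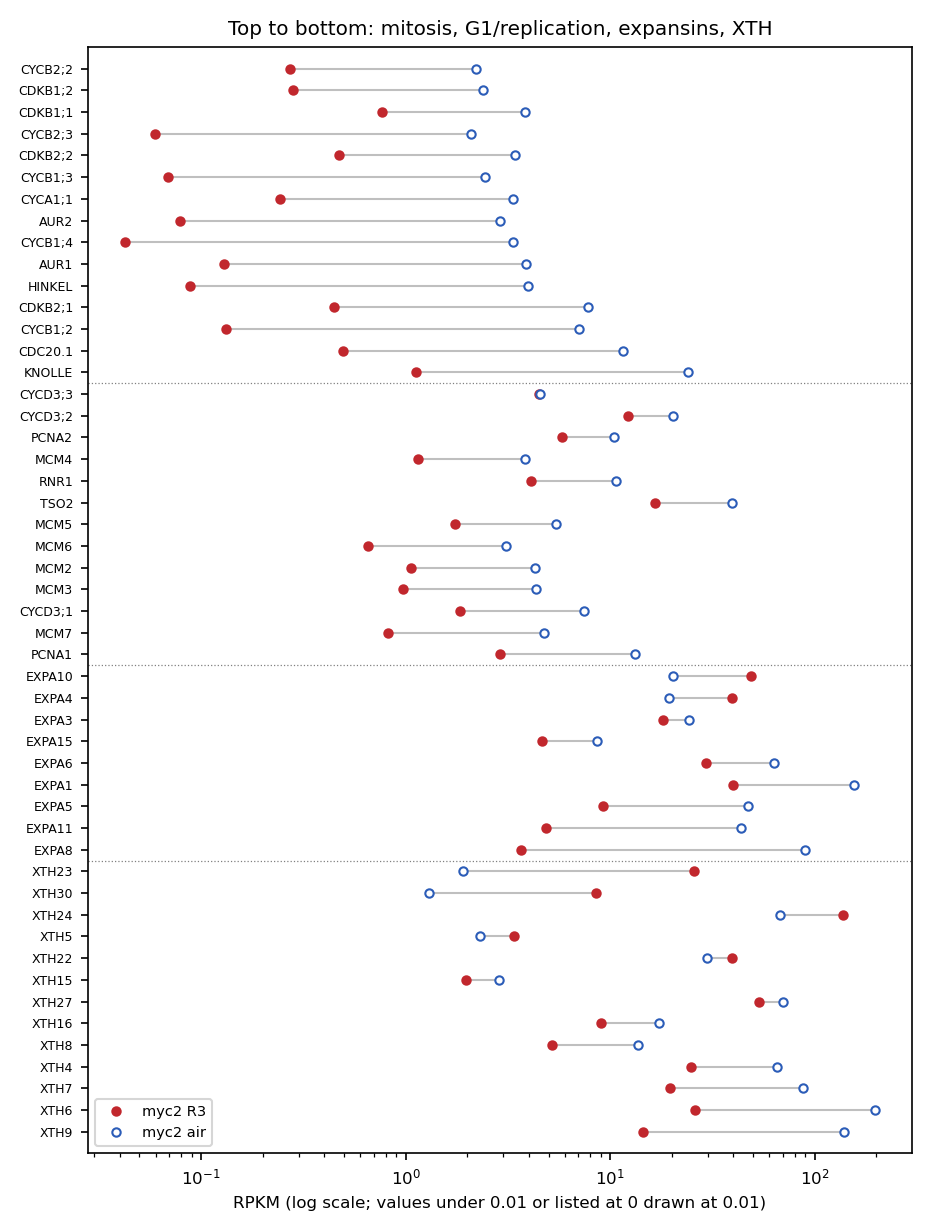
RPKM (horizontal, log scale) of genes of mitosis, G1 and DNA replication, alpha-expansins and xyloglucan hydrolases past the filter (rows) in myc2 R3 (red) and myc2 air (open blue), 1 library each. Every mitosis gene lies at 1.12 RPKM or below at R3 and at 2.10 or above in air, while the expansin and xyloglucan lists hold members on both sides.

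Phenylpropanoid and flavonoid genes lay on both sides. PAL1 (AT2G37040), for the first step from phenylalanine, was at 229.7 RPKM in myc2 R3 and 27.3 in myc2 air. C4H (AT2G30490), for the next step, was at 482 RPKM at R3, against 47.4 in air, and 4CL1 (AT1G51680), for the step after it, at 139 RPKM at R3 compared with 17.1 in air. Over the whole list of 17 genes 5 were at least 2-fold higher and 7 lower (5 and 9 under median-of-ratios scaling), with a median of −1.22. In the flavonoid branch, 3 genes named after their values were seen were lower. The flavonol synthase gene FLS1 (AT5G08640) was at 7.34 RPKM in myc2 R3 and 33.8 in myc2 air. The anthocyanin glycosyltransferase gene UF3GT (AT5G54060) was at 0.421 RPKM at R3, against 4.03 in air. DFR (AT5G42800), for the step to anthocyanidins, was at 2.04 RPKM at R3 compared with 9.40 in air in myc2, and at 8.91 in WT R3, against 6.80 in WT air. The WT list median was 0.12, over the 16 genes past the filter in WT.

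Glucosinolates, the sulfur-rich defence compounds of this family, split in a like manner by precursor. Aliphatic genes had 11 of 15 at least 2-fold lower and none higher, with a median of −2.52. IPMI2 (AT2G43100), of the chain elongation of methionine, was at 5.88 RPKM in myc2 R3 and 116 in myc2 air. CYP79F1 (AT1G16410), which makes the aldoxime, was at 3.95 RPKM at R3, against 68.8 in air, and CYP83A1 (AT4G13770), which acts on it, at 27.9 RPKM at R3 compared with 212 in air. Indole and camalexin genes had 10 of 15 higher and 1 lower, with a median of 1.74. CYP71A12 (AT2G30750), which acts on the indole aldoxime, was at 258 RPKM in myc2 R3 and 0.932 in myc2 air. Its close relative CYP71A13 (AT2G30770) was at 1.05 RPKM at R3, against 3.37 in air. CYP81F2 (AT5G57220), which modifies indole glucosinolates, was at 30.5 RPKM at R3 compared with 1.38 in air. The tryptophan synthase genes stood higher as well, with TSA1 (AT3G54640) at 190.5 RPKM in myc2 R3 and 21.1 in myc2 air and TSB1 (AT5G54810) at 329 RPKM at R3, against 69.3 in air. Sulfur genes had 3 of 11 higher and 1 lower, close to the background, with a median of 0.10, a direction that turned with a filter at 5 RPKM. APR3 (AT4G21990) was at 131 RPKM at R3 compared with 26.9 in air. The sulfate transporter gene SULTR1;2 (AT1G78000), known for uptake in roots, was at 4.91 RPKM in myc2 R3 and 0.664 in myc2 air. The low-sulfur marker LSU1 (AT3G49580) was at 13.5 RPKM at R3, against 4.26 in air in myc2, and at 1.75 in WT R3, against 7.90 in WT air.

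The leaf surface was a place where the myc2 values and the WT values lay apart. Of 14 wax genes 6 were at least 2-fold higher and 2 lower in myc2 (2 and 2 under median-of-ratios scaling), with a median of 0.62. In the WT pair 13 of 14 were higher as deposited, against a WT background of 31.3%, with a WT median of 1.46. The WT wax count was not taken under median-of-ratios scaling. Over all genes, that scaling took the higher ones in WT from 5398 to 2972. The regulator gene MYB96 (AT5G62470) was at 34.2 RPKM at R3 compared with 9.35 in air. The elongase gene CER6 (AT1G68530) was at 224 RPKM in myc2 R3 and 181 in myc2 air, a ratio whose sign differed between scalings. CYP96A15 (AT1G57750), the alkane hydroxylase of stem wax, was at 5.70 RPKM at R3, against 48.2 in air in myc2, and at 13.1 in WT R3, against 2.59 in WT air. Lipid transfer proteins, small secreted proteins of the surface layers, had 2 of 6 genes higher and 1 lower (1 and 2 under median-of-ratios scaling). LTP2 (AT2G38530) was at 804 RPKM at R3 compared with 9.46 in air. LTP6 (AT3G08770) lay far on the other side, at 9.16 RPKM in myc2 R3 and 144 in myc2 air. LTP3 (AT5G59320) was at 203 RPKM at R3, against 84.7 in air in myc2, and at 193 in WT R3, against 8.61 in WT air. LTP4 (AT5G59310), named after its values were seen, was at 62.3 RPKM at R3 compared with 102 in air in myc2, and at 216 in WT R3, against 5.48 in WT air. For CYP96A15, LTP3 and LTP4 the air libraries of the 2 genotypes thus already lay apart.

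Aquaporins went both ways, with 6 of 16 genes at least 2-fold higher and 5 lower (3 and 5 under median-of-ratios scaling), and the direction of their median, −0.02, turned under alternatives. PIP2;3 (AT2G37180), a plasma membrane form, was at 269 RPKM in myc2 R3 and 8.43 in myc2 air. Its neighbour PIP2;2 (AT2G37170), with which it shares sequence, was at 412 RPKM at R3, against 49.7 in air. PIP1;5 (AT4G23400), of the other plasma membrane group, was at 36.2 RPKM at R3 compared with 173 in air. The tonoplast gene TIP1;2 (AT3G26520) was at 563 RPKM in myc2 R3 and 1454 in myc2 air.

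Clock genes stayed close to all genes, with 3 of 18 higher and 3 lower (1 and 4 under median-of-ratios scaling) and a median of −0.29, a direction that turned when the filter was left out. LNK1 (AT5G64170), a coactivator of evening genes, was at 36.4 RPKM at R3, against 11.9 in air. FKF1 (AT1G68050), a blue light receptor of flowering, was at 4.31 RPKM at R3 compared with 16.0 in air, and CHE (AT5G08330), a repressor of CCA1, at 25.8 RPKM in myc2 R3 and 100.2 in myc2 air. The evening element AAAATATCT was found in the 250 bases before 4 of 18 clock genes (22.2%), and before 2.40% of all protein-coding genes. Ferritins and stress zinc fingers had it before 1 of 4 genes each. In light signalling 5 of 16 genes were higher and 1 lower, also near the background. The light-response factor gene HYH (AT3G17609) was at 139.6 RPKM at R3, against 10.8 in air. ELIP2 (AT4G14690), an early light-induced gene, was at 23.1 RPKM at R3 compared with 2.24 in air, and SIG5 (AT5G24120), a plastid sigma factor, at 53.8 RPKM in myc2 R3 and 7.84 in myc2 air. PIF4 (AT2G43010), a growth-promoting factor, lay on the other side, at 7.99 RPKM at R3, against 35.4 in air. Of 11 reference genes 2 were at least 2-fold higher as deposited and none under median-of-ratios scaling. UBQ10 (AT4G05320) was at 1405 RPKM at R3 compared with 647 in air, and ACT2 (AT3G18780) at 202 RPKM in myc2 R3 and 221 in myc2 air.

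The chloroplast's own loci differed from its nuclear genes. Of 70 plastid-encoded loci past the filter 4 were at least 2-fold higher and 15 lower at R3 (1 and 21 under median-of-ratios scaling), with a median of −0.66, but the 88 plastid-encoded loci of the tables held 7.47% of all RPKM in myc2 R3, against 3.97% in myc2 air. A pair of loci carried most of the share at R3. ATCG00220 was at 25348 RPKM at R3, against 8185 in air, the largest gain in RPKM of any locus. ATCG01020 was at 9693 RPKM at R3 compared with 4543 in air, the next largest gain. Together they held 6.01% of all RPKM in myc2 R3, against 2.08% in myc2 air. ATCG00220 was at 6722 in WT R3, against 9165 in WT air. Neither locus is named in the reference used here, and how the libraries selected RNA is not given in the sources used here. Of 27 mitochondrion-encoded loci past the filter 10 were at least 2-fold higher and none lower.

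Beyond the lists, the genes with the highest log2 ratios included loci of other kinds. UPI (AT5G43580), a serine protease inhibitor, was at 394 RPKM in myc2 R3 and 0.877 in myc2 air, and the chitinase family gene AT2G43620 at 621 RPKM at R3, against 2.06 in air. The uncharacterised gene AT4G08555 was at 854 RPKM at R3 compared with 3.02 in air, and AT1G36622, also uncharacterised, at 329 RPKM in myc2 R3 and 0.757 in myc2 air. The thioredoxin-dependent peroxidase gene TPX2 (AT1G65970) was at 213 RPKM at R3, against 0.173 in air, about 3.88 fragments in air. Other genes had large gains in RPKM from an already measurable air level. AT1G62480, annotated as similar to a vacuolar calcium-binding protein, was at 2421 RPKM at R3 compared with 599 in air. The late embryogenesis abundant gene AT2G23120 was at 1612 RPKM in myc2 R3 and 341 in myc2 air. AT2G38870, of the same protease inhibitor family as UPI, was at 1173 RPKM at R3, against 28.9 in air. BCB (AT5G20230), for a blue copper protein, was at 1126 RPKM at R3 compared with 23.1 in air.

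Several genes were listed at 0 in 1 of the 2 libraries. Among those listed at 0 in air, the highest at R3 after AT1G53540 was AT2G39530, of an uncharacterised family, at 94.9 RPKM. The peroxidase family gene AT5G39580 was at 83.1 RPKM at R3, the cytochrome P450 gene CYP82C2 (AT4G31970) at 67.8 and RAP2.6 (AT1G43160), an ethylene response factor gene, at 60.3. Among those listed at 0 at R3, ENODL13 (AT5G25090), for an early nodulin-like protein, was highest in air, at 12.1 RPKM. Its relatives had some of the lowest ratios of all genes. ENODL14 (AT2G25060) was at 0.312 RPKM in myc2 R3 and 39.6 in myc2 air, and ENODL15 (AT4G31840) at 1.05 RPKM at R3, against 36.1 in air. AT3G12870, listed at 0 at R3, was at 7.61 in air, and ROPGEF6 (AT3G55660), an activator of small GTPases, also listed at 0 at R3, was at 3.61 in air. The plant thionin AT1G66100 was at 17.0 RPKM at R3 compared with 658 in air in myc2, and at 177 in WT R3, against 657 in WT air. MES18 (AT5G58310), a methyl esterase, was at 1.44 RPKM in myc2 R3 and 53.3 in myc2 air.

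**Figure D5:**
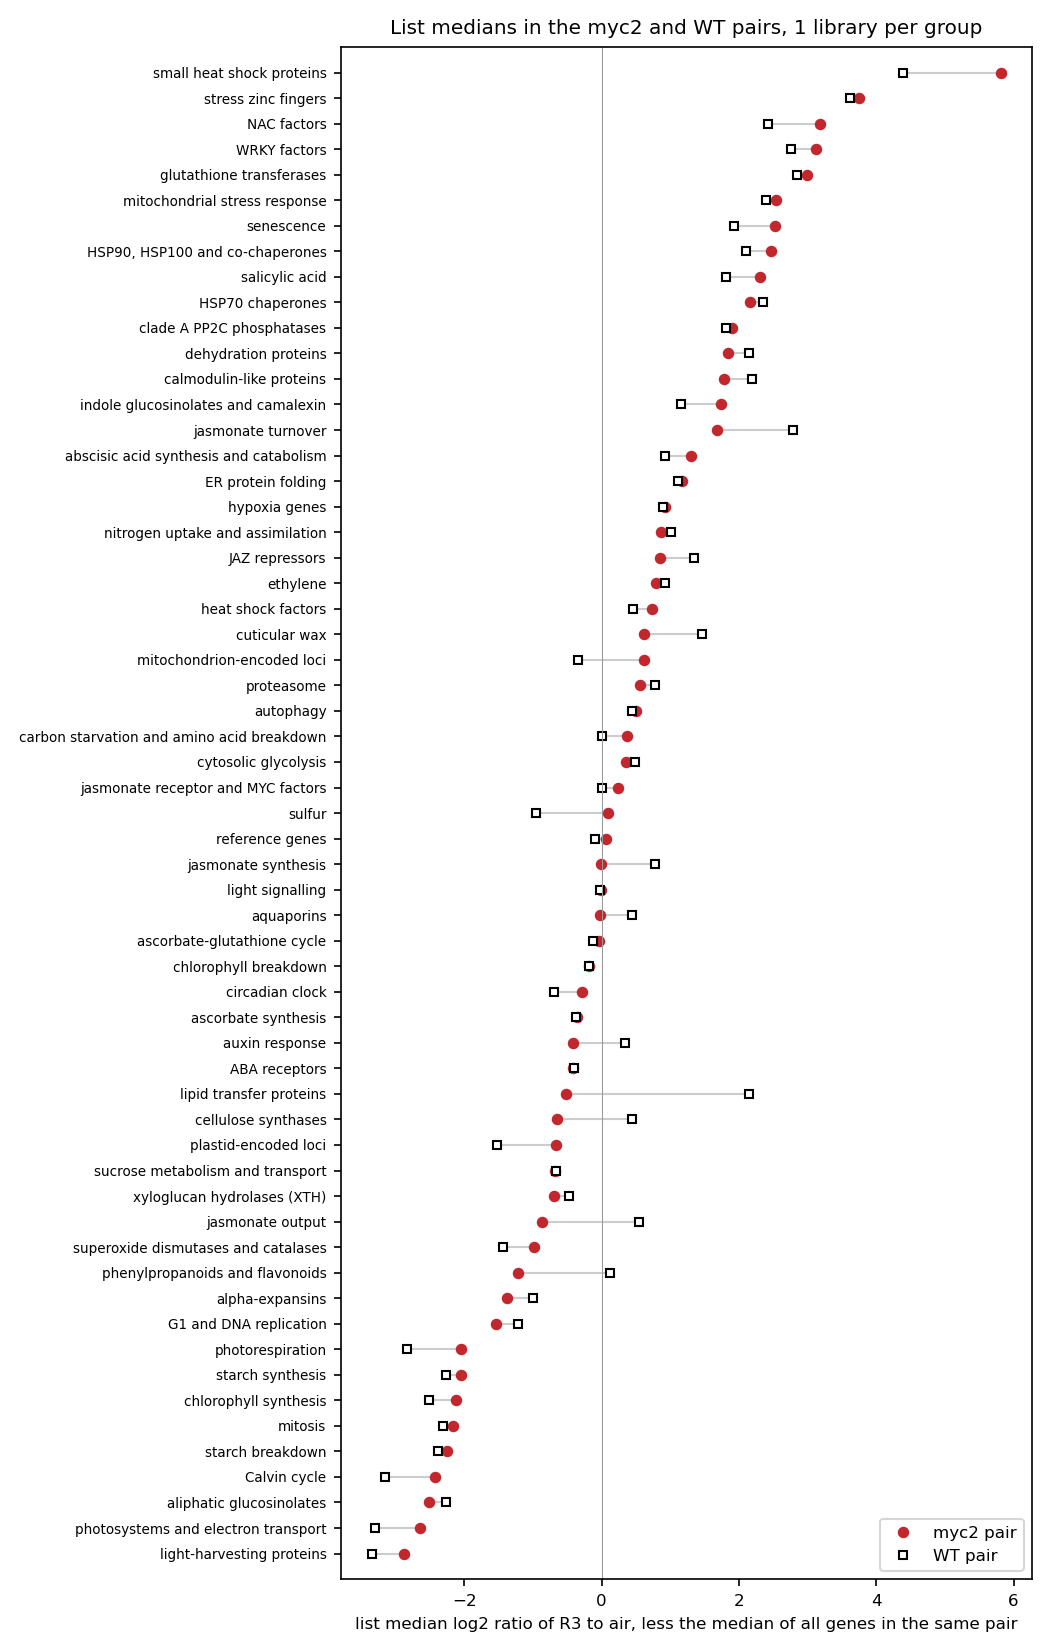
List median log2 ratio of R3 to air, after subtraction of the all-gene median of that pair (horizontal), for the myc2 pair (red) and the WT pair (open squares), by gene list (rows), 1 library per group. Each median covers the members past the filter in that pair, so its genes can differ between the pairs. For cellulose synthases these are 6 genes in myc2 and 8 in WT. Of the 59 lists plotted, 10 lie on opposite sides of 0 in the 2 pairs. Among these are lipid transfer proteins (−0.52 in myc2 and 2.15 in WT), jasmonate output (−0.87 and 0.54) and phenylpropanoids and flavonoids (−1.22 and 0.12), sulfur (0.10 and −0.95), cellulose synthases (−0.65 and 0.45) and mitochondrion-encoded loci (0.61 and −0.35), and these differences were not tested. Sulfur, jasmonate synthesis, aquaporins and reference genes are also among the 10, with myc2 medians near 0 that changed sign under alternatives.

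Loci on the opposite strand overlap the following genes given above in the reference annotation, so that their values are uncertain unless strand was used: MYC2, COI1, HSP17.4, AT3G09440, CPHSC70-1, CPHSC70-2, HSP101, HOP3, HSFA1B, ATG8A, NBR1, CSD1, AT4G33670, WRKY29, NAC102, AT3G01830, ABA2, PYL7, ABI1, DREB2A, GOLS1, P5CS1, ADH1, JAZ10, AT3G22275, LHCB1.3, LHCB2.3, PSBR, PGK1, HCEF1, PORB, CHLI2, GUN4, PHS1, BAM3, AMT1;1, DIN10, KNOLLE, MCM7, CESA1, CESA3, 4CL1, CYP71A13, APR3, LNK1, FKF1, AT1G36622, TPX2, AT2G23120, ENODL13, AT3G12870 and MES18. At least 5% of the 50-base words of these genes also occur elsewhere in the annotated genes, so that reads could be shared: HSP90.2, GSTF7, FER4, LHCB1.3, LHCB1.4, LHCB1.2, RBCS3B, CDC20.1, CYCB1;2, CYCB2;3, PIP2;3, PIP2;2, UBQ10, TPX2 and CYP82C2.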

How the data were processed

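RNA sequencing was deposited for 4 libraries, 1 for each genotype and condition. The authors deposited RPKM values per locus, and the WT R3 column gives FPKM per the file headers. Per the submitters' processing notes, TopHat, Cufflinks and TAIR10 were used, without versions. The sources used here do not give settings, whether strand was used or how multiply matching reads were counted. Of 31319 loci, 30622 matched the reference annotation (TAIR10.1) by locus identifier.

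From the deposited RPKM values, log2 ratios of R3 over air were computed with a pseudocount of 1 RPKM for genes whose mean over the pair reached 1 RPKM, with python 3.11.15, numpy 2.4.6, pandas 2.3.3 and matplotlib 3.10.9, and the calculation was tested on simulated data. Genes were not tested, because each group has 1 library. Fragment numbers were estimated from the steps between low values and are approximate, since 13.03% of low genes in myc2 R3 and 18.1% in myc2 air lay within 0.02 of a whole fragment, where chance gives 4.0%. Counting errors cover counting only.

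The 63 gene lists hold 885 genes, 884 of them in the tables. Members and lists were chosen with earlier results of these data known. Genes were named by rule, as MYC2, the 12 highest and 12 lowest ratios (mean of at least 5 RPKM), the 8 largest differences in RPKM each way, the 6 highest listed at 0 in either library, a few jasmonate, ascorbate and fermentation genes, and from each list the 3 largest ratios, the most opposite and the highest level. Other genes were named after their values were seen. Alternatives were a pseudocount of 0.1 or 5 RPKM, leaving out the filter or setting it to 5 RPKM, and scaling by the median of ratios, by total RPKM (1000000 each) or by the total less its 50 highest genes.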

Additional observations from a re-analysis of the deposited data

Results flagged for a closer look

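For 5 genes the log2 ratio of R3 to air had opposite signs in the myc2 pair and the WT pair, with a size of at least 1 in each. There was 1 library per group, and the difference between the pairs was not tested. LSU1 (AT3G49580), of the low-sulfur response, had a log2 ratio of 1.46 in myc2 and −1.69 in WT. CYP96A15 (AT1G57750), the alkane hydroxylase, had −2.88 in myc2 and 1.97 in WT. The other 3 were named after their values were seen. The glucanase gene PR2 (AT3G57260) had 1.05 in myc2 and −2.52 in WT. CER4 (AT4G33790), for the reductase that makes wax alcohols, had −1.22 in myc2 and 1.23 in WT, from 2.51 RPKM at R3, against 7.14 in air in myc2, and 5.22 in WT R3, against 1.64 in WT air. The defensin gene PDF1.2B (AT2G26020) had −1.05 in myc2 and 1.11 in WT, from 3.99 RPKM at R3 compared with 9.34 in air in myc2, and 5.39 in WT R3, against 1.97 in WT air.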

How the results depend on the processing

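No paired analysis was possible because each group has 1 library and the labels give no replicate numbers. With a pseudocount of 5 RPKM, 2613 genes were at least 2-fold higher and 1125 lower in myc2 R3, against 4175 and 2031 as reported, and the 6 other alternatives kept these counts within 1.5 times. Of 61 list medians relative to all genes, 9 changed sign under at least 1 alternative, namely chlorophyll breakdown, jasmonate synthesis, ascorbate synthesis, the ascorbate-glutathione cycle, the circadian clock, sulfur, aquaporins, light signalling and reference genes. None of the 29 medians of at least 1 in size changed sign under the 7 alternatives, and 5 fell below 1. These ranged from 0.90 to 2.13 for jasmonate turnover, from 0.57 to 1.69 for abscisic acid synthesis and catabolism, from −1.55 to −0.23 for phenylpropanoids and flavonoids, from −4.27 to −0.86 for mitosis and from −2.00 to −0.82 for G1 and DNA replication. Low levels, as in mitosis genes at R3 and small heat shock protein genes in air, limit the precision of ratios.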

Other observations

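Gene families as named by the reference annotation, examined after the data were seen and described without a test, gave further groups. Some share members with the lists above, such as AT3G47480 of the EF-hand family and the motor gene HINKEL of the mitosis list. Histone superfamily genes, for the proteins that package DNA, had 28 members past the filter, with 2 at least 2-fold higher at R3, 14 lower and a median of −1.29 relative to all genes. Microtubule motor genes annotated as ATP binding had 10 members, none higher and 6 lower, with a median of −1.45. Genes of the SAUR family, small auxin-responsive genes linked to cell expansion, had 51 members and lay on both sides, with 12 higher, 21 lower and a median of −1.12. The pectin lyase-like family, of the cell wall, had 33 members, 3 higher and 13 lower, with a median of −0.87.

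On the other side, the FAD-binding Berberine family had the highest median of the families examined, 3.79, with 13 of 17 genes at least 2-fold higher and 1 lower. The SPFH/Band 7 family came next, with 9 of 10 higher, none lower and a median of 1.44. Families further down included the VQ motif proteins, partners of WRKY factors, with 14 of 21 genes at least 2-fold higher, none lower and a median of 1.197. Calcium-binding EF-hand genes had 15 of 27 higher and none lower, with a median of 1.06. The late embryogenesis abundant hydroxyproline-rich family had 12 of 20 higher and none lower, with a median of 1.21. Peroxidase family genes had 17 of 29 higher and 5 lower, with a median of 0.84. Among families that include plastid proteins, the fibrillin family had 10 members, none higher and 6 lower, with a median of −1.70, and the FKBP-like family had 12 members, 1 higher and 9 lower, with a median of −1.89.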
